A study of Mus musculus with 18 samples.

Results

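The messenger RNAs of 32 genes of glycolysis and the hypoxia response were followed in microglia, brain-resident macrophages, from mouse primary cultures. The genes were a list of symbols matched to the gene identifiers of the count table, and all 32 were found among its 50686 identifiers. By role they were 15 glycolytic enzymes, 2 transporters, 4 regulators of glycolytic and pyruvate flux, 3 oxygen-sensing genes and 8 other targets of hypoxia-inducible factor (HIF). The 3 oxygen-sensing genes were Hif1a, which encodes the HIF alpha subunit, and the prolyl hydroxylase genes Egln1 and Egln3. All 32 passed the filter on low counts, which left 13447 genes for testing. Primary microglia came from forebrains of C57BL/6 pups at postnatal day 2 and grew in mixed culture for 7 days before and 7 days after a change of medium, after which the microglia were shaken off and cultured on their own. RNA was sequenced in 18 libraries of 6 genotypes with 3 libraries each. The genotypes were WT; Tbk1+/- (here Tbk1het); Tak1ΔM/+ (Tak1het); Tbk1+/-;Tak1ΔM/+ (Tbk1het Tak1het); Tbk1+/-;Ripk1D138N/D138N (Tbk1het Ripk1hom); and Tbk1+/-;Tak1ΔM/+;Ripk1D138N/+ (Tbk1het Tak1het Ripk1het). What made the ΔM allele is not in the labels, nor is it known from them if libraries within a genotype stem from different animals, so p-values cover library-to-library spread only. RIPK1 is a kinase of cell death and inflammation that both TBK1 and TAK1 hold in check, and the D138N allele has no kinase activity. The labels give no treatment and no change of oxygen for any group.

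Glycolysis splits glucose into pyruvate, and lactate dehydrogenase turns the pyruvate into lactate, which monocarboxylate carriers export. HIF is a transcription factor whose alpha subunit is marked for destruction by prolyl hydroxylases when oxygen is present. When oxygen is low, or when macrophages are activated by inflammatory signals, the subunit persists and raises most glycolytic enzymes, the glucose and lactate transporters, and kinases that keep pyruvate out of mitochondria. Macrophages and microglia shift toward glycolysis when they are activated. HIF acts largely after Hif1a has been transcribed, so the level of the Hif1a message is not a measure of its protein.

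The libraries held 8016559 to 22989116 counts. Expression is given as CPM (counts scaled to a common library total) after scaling by the trimmed mean of M values, and the floor of 3 counts lay between 0.137 and 0.338 CPM. Tbk1 stood at 106, 104 and 149 CPM in WT and 50.5, 65.6 and 57.1 in Tbk1het, but 5 libraries labelled Tbk1+/- lay inside the WT range. These were replicates 1 and 3 labelled Tbk1het Ripk1hom and the 3 labelled Tbk1het Tak1het Ripk1het (107 to 131 CPM), so the last 2 genotypes are named by their labels throughout. Map3k7, which encodes TAK1, stood at 11.0, 10.4 and 19.2 CPM in WT, 9.98, 8.96 and 7.34 in Tak1het and 15.8, 11.4 and 6.57 in Tbk1het Tak1het, and counts over the whole gene do not check the loss of a part of it. The summed level of 12 microglia markers was 9536 to 12359 CPM, with Sall1 at most 4.01 CPM and Tmem119 at 1.45 to 6.56 CPM. Astrocyte, oligodendrocyte, neuron and stromal lists summed to at most 90.5 CPM each in any library. Tbk1het replicates 1 and 3 stood apart, with Lyve1, a marker of border macrophages, at 98.2 and 156 CPM against at most 8.78 in the other 16 libraries. A gene is called where the quasi-likelihood test of edgeR gave an adjusted p under 0.05 (Benjamini-Hochberg, over the 13447 genes), and only called genes are said to rise or fall. Calls that involve Tbk1het are also given without the Tbk1het libraries with high Lyve1. In bulk RNA, fewer cells of a type and less RNA per cell cannot be told apart.

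Most of the 32 genes hold the core of the HIF binding motif near their start. The motif was searched as ACGTG and GCGTG on both strands (CACGT and CACGC when read on the other strand) in RefSeq windows of 300 bases (GRCm38.p6), from 250 before to 50 after a transcript start. Of the 31 genes with an entry, 29 (93.5%) held a match in at least 1 window, against 46.7% of 27025 genes of the whole table. Over windows, 38 of 47 (80.9%) held a match, against 43.8% of 32851. The whole table also holds genes that were not tested here, and it was not matched to the 32 genes in expression or base content. The difference in shares is therefore no measure of enrichment for HIF binding. Among genes called in at least 1 comparison the share was 12 of 13, and among those not called 17 of 18. The sequences of 6 of the 12 genes that fell in Tbk1het Tak1het against Tbk1het show where these letters lie in the 150 bases before a RefSeq start. These 6 were picked by no set rule and stand as examples. Gpi1, another of the 12, had 0 matches in its window. Capitals mark the matches, and a palindrome such as CACGTG counts on both strands.
Ldha, chr7:46845654-46845803, plus strand: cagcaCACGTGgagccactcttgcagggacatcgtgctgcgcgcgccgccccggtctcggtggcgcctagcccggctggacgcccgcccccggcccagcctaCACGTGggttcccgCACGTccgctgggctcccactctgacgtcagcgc
Pgk1, chrX:106186950-106187099, plus strand: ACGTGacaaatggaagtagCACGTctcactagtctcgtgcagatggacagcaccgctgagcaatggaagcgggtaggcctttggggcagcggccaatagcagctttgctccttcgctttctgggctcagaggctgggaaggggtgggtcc
Slc16a3, chr11:120948917-120949066, plus strand: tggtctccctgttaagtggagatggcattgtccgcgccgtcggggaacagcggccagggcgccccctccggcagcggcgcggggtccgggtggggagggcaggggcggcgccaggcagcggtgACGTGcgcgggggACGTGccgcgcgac
Pdk1, chr2:71873074-71873223, plus strand: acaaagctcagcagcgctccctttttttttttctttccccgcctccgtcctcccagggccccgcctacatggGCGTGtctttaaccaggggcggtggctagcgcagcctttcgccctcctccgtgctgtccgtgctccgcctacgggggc
Bnip3, chr7:138909507-138909656, minus strand: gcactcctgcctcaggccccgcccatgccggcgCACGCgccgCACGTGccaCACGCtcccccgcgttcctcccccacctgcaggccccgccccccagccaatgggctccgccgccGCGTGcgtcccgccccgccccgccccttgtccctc
Mxi1, chr19:53329263-53329412, plus strand: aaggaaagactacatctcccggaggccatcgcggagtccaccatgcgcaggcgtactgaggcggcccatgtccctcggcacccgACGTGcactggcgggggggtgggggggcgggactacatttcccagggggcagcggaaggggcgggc
Ldha and Bnip3 each had 5 matches in this stretch, Pgk1 and Slc16a3 had 2 each, and Pdk1 and Mxi1 had 1 each. Ldha, Pdk1 and Mxi1 each have more than 1 start, and the start with the most matches in this stretch is shown. Over whole windows of 300 bases the matches were 7 and 2 for Ldha, 2 and 0 for Pdk1, and 0, 1 and 1 for Mxi1. The matches are a description of the reference sequence, and binding was not measured.

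Levels of different genes were compared per kilobase of exon, counting every annotated exon base of a gene. That length was 13401 bases for Pfkp and 4133 for Gapdh. Their protein-coding transcripts held 4536 and 1943 distinct windows of 50 bases. For such genes the measure can read low, and the order of the genes depends on it. The enzymes that split the sugar and make pyruvate and lactate dominated. Aldoa (aldolase) led with 466 ± 107 CPM per kilobase (SD over 18 libraries), then Pkm (pyruvate kinase) with 298 ± 73.1 and Ldha (lactate dehydrogenase) with 245 ± 81.9. Aldoa and Pkm overlapped within their spread, as did Pkm and Ldha. Tpi1 (triosephosphate isomerase, 151) and Hk3 (115) followed. Hk3 was the leading hexokinase, the family that traps glucose in the cell, with Hk1 at 4.20 and Hk2 at 4.0 CPM per kilobase. Of the phosphofructokinases, which commit sugar to glycolysis, Pfkl stood at 10.7, Pfkm at 3.81 and Pfkp at 3.40 CPM per kilobase. Before division by length their means were 71.2, 12.7 and 45.5 CPM, so the order of Pfkm and Pfkp rests on the length used. At the other end, Vegfa (the angiogenic growth factor) reached at most 1.48 CPM with no counts in 4 libraries, and Adm (adrenomedullin) at most 1.58 CPM with none in 1. Levels of genes with near-identical copies are uncertain, because a share of their 50-base transcript windows also occurs in other genes: 68% for Pgk1, 59.1% for Bnip3, 58.4% for Gapdh, 49.5% for Eno1 and 41.5% for Pgam1, but 0% for Slc16a3, Pdk1, Hilpda and Egln3.

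**Figure D1:**
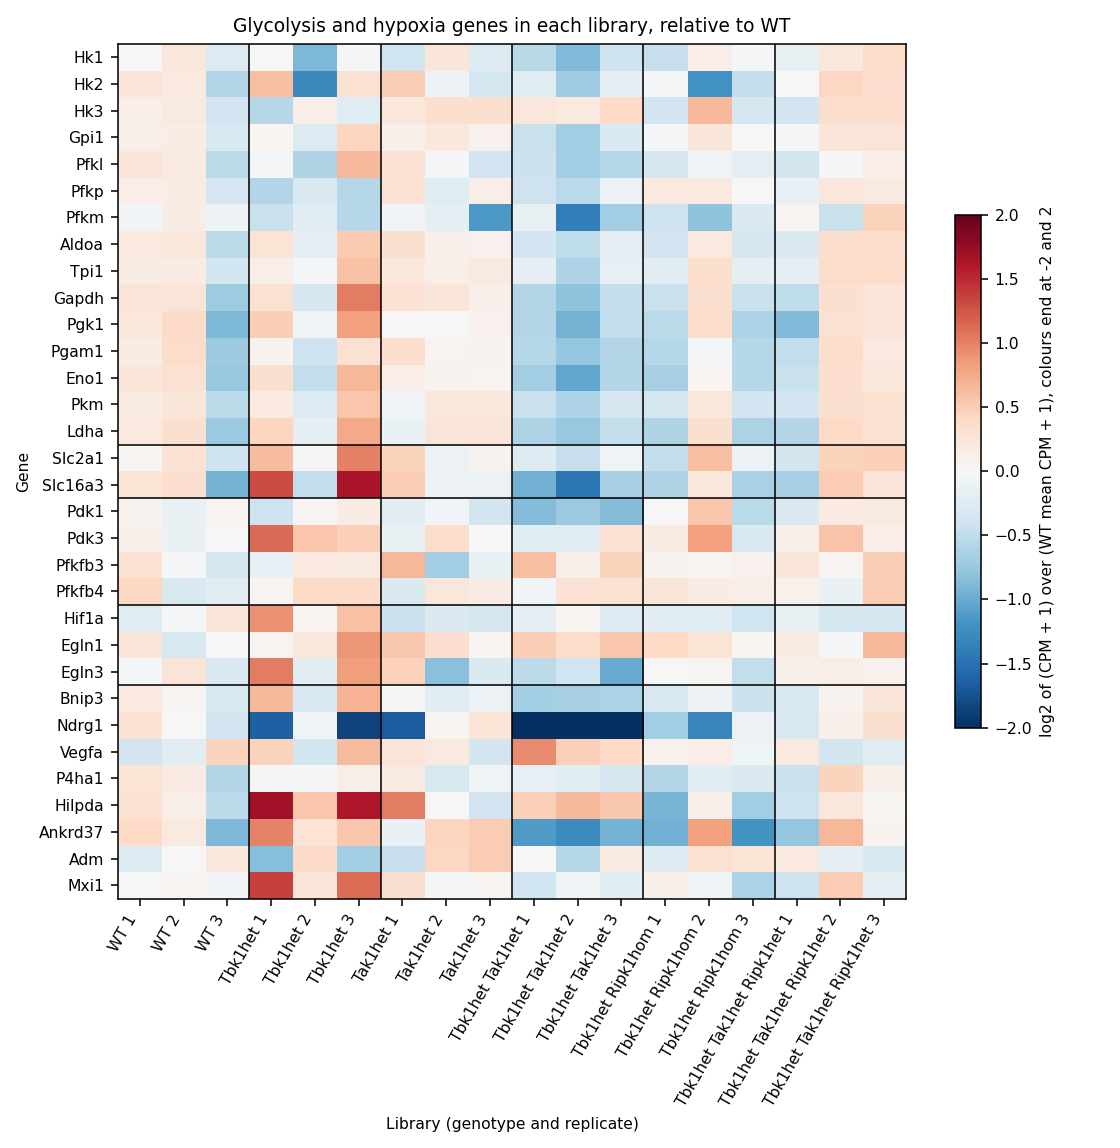
Level of each of the 32 genes (rows, grouped by role) in each of the 18 libraries (columns) as log2 of (CPM + 1) over (WT mean CPM + 1), with colours ending at -2 and 2. The enzyme rows are mostly blue in the 3 Tbk1het Tak1het libraries and also in WT replicate 3, Tbk1het Ripk1hom replicates 1 and 3 and Tbk1het Tak1het Ripk1het replicate 1.

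The enzyme genes varied from library to library, also within genotypes. The summed level of the 15 enzymes was 6531, 6802 and 3909 CPM in WT and 6663, 4927 and 8482 in Tbk1het. It was 6239, 6503 and 6404 in Tak1het and 4341, 3832 and 4772 in Tbk1het Tak1het. The libraries labelled Tbk1het Ripk1hom gave 4387, 6869.9 and 4405 CPM, and those labelled Tbk1het Tak1het Ripk1het gave 4466, 7259 and 7104. Tbk1het Tak1het was the 1 genotype with all 3 libraries at or below 4772 CPM, and Tak1het the 1 genotype with all 3 at or above 6239 CPM. WT replicate 3, at 3909 CPM, was as low as Tbk1het Tak1het. Of the 30 members with a mean of at least 5 CPM, 22 had a larger SD within genotypes than between genotype means on the log2 scale. A mean of 3 libraries varies less than single libraries do, so this count is no test of genotype.

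Among the enzymes, Pkm, which makes pyruvate, had 1692, 1775 and 1037 CPM in WT, 1725, 1236 and 2199.8 in Tbk1het, 1429, 1759 and 1747 in Tak1het, 1098, 974 and 1195 in Tbk1het Tak1het, 1182, 1752 and 1155 in the libraries labelled Tbk1het Ripk1hom, and 1157, 1880.0 and 1852 in those labelled Tbk1het Tak1het Ripk1het. Aldoa, which splits the sugar, had 1523, 1562 and 915 CPM in WT, 1619, 1169.8 and 1912 in Tbk1het, 1665, 1427 and 1412 in Tak1het, 1023, 939 and 1169 in Tbk1het Tak1het, 1024, 1521 and 1048 in the libraries labelled Tbk1het Ripk1hom, and 1097, 1697 and 1699 in those labelled Tbk1het Tak1het Ripk1het. Both were low in the 3 Tbk1het Tak1het libraries, in WT replicate 3 and in 3 of the 6 libraries with a Ripk1 allele. Neither was called in any comparison by edgeR. By DESeq2 both passed in Tbk1het Tak1het against Tbk1het (adjusted p = 0.0278 for Pkm and 0.0425 for Aldoa). Ldha (ENSMUSG00000063229, chromosome 7, 46841475 to 46855627, plus strand; GRCm38) had 939, 1019 and 489 CPM in WT, 1099.8, 719 and 1381 in Tbk1het, 741, 969 and 966 in Tak1het, 529.9, 482 and 587 in Tbk1het Tak1het, 539, 1024 and 527 in the libraries labelled Tbk1het Ripk1hom, and 541, 1076 and 995 in those labelled Tbk1het Tak1het Ripk1het. Its highest values were Tbk1het replicates 3 and 1, and the 3 Tbk1het Tak1het libraries lay below every Tbk1het and Tak1het library. Eno1, the enolase that makes phosphoenolpyruvate, had 439.6, 459 and 221 CPM in WT, 468, 264 and 593 in Tbk1het, 410.0, 390.0 and 388 in Tak1het, 229.8, 181 and 249 in Tbk1het Tak1het, 235, 383 and 249.6 in the libraries labelled Tbk1het Ripk1hom, and 274, 473 and 431 in those labelled Tbk1het Tak1het Ripk1het. Gapdh, the glyceraldehyde-phosphate dehydrogenase, had 398, 395 and 202 CPM in WT, 410.2, 263 and 672 in Tbk1het, 405, 391 and 357 in Tak1het, 220.3, 189 and 239 in Tbk1het Tak1het, 243, 416 and 243 in the libraries labelled Tbk1het Ripk1hom, and 234, 416 and 392 in those labelled Tbk1het Tak1het Ripk1het. Both, like Ldha, were lowest in replicate 3 among WT and in replicate 2 among Tbk1het, and their Tbk1het Tak1het libraries lay below every Tbk1het and Tak1het library. Pgk1 (ENSMUSG00000062070, chromosome X, 106187100 to 106203699, plus strand), which makes the first ATP of the pathway, had 94.0, 105 and 42.9 CPM in WT, 114, 75.8 and 143 in Tbk1het, 81.5, 80.5 and 85.4 in Tak1het, 53.7, 41.6 and 57.0 in Tbk1het Tak1het, 55.0, 104 and 52.0 in the libraries labelled Tbk1het Ripk1hom, and 43.3, 100.1 and 96.5 in those labelled Tbk1het Tak1het Ripk1het. Gpi1, which isomerizes glucose phosphate, had 267, 275 and 198 CPM in WT, 254, 203 and 333 in Tbk1het, 265, 285 and 263 in Tak1het, 180.3, 154 and 199.8 in Tbk1het Tak1het, 242, 292 and 244 in the libraries labelled Tbk1het Ripk1hom, and 239, 292 and 295 in those labelled Tbk1het Tak1het Ripk1het. For Gpi1 the Tbk1het Tak1het libraries overlapped WT replicate 3 and lay below all Tbk1het and Tak1het libraries. The 8 other enzymes (Hk1, Hk2, Hk3, Pfkl, Pfkp, Pfkm, Tpi1 and Pgam1) differed between their lowest and highest libraries by 1.85 times (Pfkp) to 4.10 times (Pfkm). None of them was called in the main edgeR fit, but some passed in alternative fits. In edgeR fits on only the libraries compared, Pgam1 passed in Tbk1het Tak1het against Tak1het (adjusted p = 0.0129) and against Tbk1het (0.0452). By DESeq2 Tpi1 passed in Tbk1het Tak1het against Tbk1het (adjusted p = 0.0330). Pfkp passed by DESeq2 in Tbk1het Ripk1hom against Tbk1het (adjusted p = 0.0343).

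The lactate exporter varied more than the called enzymes, with 8.84 times between its lowest and highest library against 2.17 (Gpi1) to 3.55 times (Gapdh) for those 5. Slc16a3 (ENSMUSG00000025161, chromosome 11, 120948480 to 120960868, plus strand) had 64.8, 67.7 and 27.2 CPM in WT, 132, 37.5 and 166 in Tbk1het, 75.3, 49.7 and 48.9 in Tak1het, 26.7, 18.8 and 33.2 in Tbk1het Tak1het, 34.6, 61.5 and 33.4 in the libraries labelled Tbk1het Ripk1hom, and 33.1, 76.0 and 63.9 in those labelled Tbk1het Tak1het Ripk1het. Tbk1het replicates 1 and 3 were the 2 highest of all libraries, while Tbk1het replicate 2 lay in the range of the other genotypes. Slc2a1, the glucose importer, had 76.4, 90.4 and 55.2 CPM in WT, 114, 75.3 and 150.4 in Tbk1het, 101, 68.2 and 77.6 in Tak1het, 61.8, 53.7 and 69.9 in Tbk1het Tak1het, 52.7, 112 and 67.9 in the libraries labelled Tbk1het Ripk1hom, and 56.9, 101 and 103 in those labelled Tbk1het Tak1het Ripk1het. It was not called in any comparison by edgeR, but DESeq2 gave -0.88 (adjusted p = 0.0193) in Tbk1het Tak1het against Tbk1het. Of the flux regulators, Pdk1, a kinase that shuts pyruvate dehydrogenase and so keeps pyruvate out of the mitochondrion (ENSMUSG00000006494, chromosome 2, 71873224 to 71903858, plus strand), had 91.5, 78.8 and 90.4 CPM in WT, 65.2, 90.7 and 96.3 in Tbk1het, 73.8, 83.8 and 67.2 in Tak1het, 47.4, 52.3 and 47.0 in Tbk1het Tak1het, 86.5, 126 and 59.8 in the libraries labelled Tbk1het Ripk1hom, and 71.0, 97.3 and 98.5 in those labelled Tbk1het Tak1het Ripk1het. The 3 Tbk1het Tak1het libraries were the 3 lowest of the 18. Pfkfb4, a bifunctional enzyme that tunes phosphofructokinase, had 56.7, 34.3 and 36.5 CPM in WT, 44.3, 56.4 and 55.9 in Tbk1het, 34.5, 50.0 and 47.2 in Tak1het, 40.9, 52.3 and 52.8 in Tbk1het Tak1het, 50.6, 47.2 and 46.4 in the libraries labelled Tbk1het Ripk1hom, and 45.2, 38.5 and 60.9 in those labelled Tbk1het Tak1het Ripk1het, with overlap between all genotypes. Pdk3 ranged from 12.0 to 34.0 CPM and Pfkfb3 from 13.9 to 37.5 CPM, and neither was called by edgeR. By DESeq2 Pdk3 passed in Tbk1het Tak1het against Tbk1het (adjusted p = 0.0274).

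Of the oxygen-sensing genes, Hif1a (ENSMUSG00000021109, chromosome 12, 73901375 to 73947530, plus strand), the alpha subunit of HIF, had 134, 154 and 189 CPM in WT, 301, 163 and 240.2 in Tbk1het, 117, 129.7 and 126 in Tak1het, 139, 163 and 133 in Tbk1het Tak1het, 137, 134 and 120.1 in the libraries labelled Tbk1het Ripk1hom, and 145, 125 and 125 in those labelled Tbk1het Tak1het Ripk1het. It stayed between 117 and 189 CPM in 16 libraries and was above that in Tbk1het replicates 1 and 3. Egln3, a prolyl hydroxylase that HIF itself induces, had 5.00, 6.30 and 3.94 CPM in WT, 11.4, 4.23 and 9.88 in Tbk1het, 7.38, 2.40 and 3.98 in Tak1het, 3.23, 3.61 and 2.04 in Tbk1het Tak1het, 5.06, 5.34 and 3.33 in the libraries labelled Tbk1het Ripk1hom, and 5.51, 5.63 and 5.41 in those labelled Tbk1het Tak1het Ripk1het. Its 2 highest values were again Tbk1het replicates 1 and 3. Egln1, the main prolyl hydroxylase, had 6.20, 3.83 and 4.99 CPM in WT, 5.21, 5.94 and 10.1 in Tbk1het, 7.70, 6.56 and 5.21 in Tak1het, 7.48, 6.76 and 7.86 in Tbk1het Tak1het, 6.92, 6.24 and 5.15 in the libraries labelled Tbk1het Ripk1hom, and 5.69, 4.83 and 8.40 in those labelled Tbk1het Tak1het Ripk1het. The 3 Tbk1het Tak1het libraries of Egln1 lay above the 3 WT libraries, all other pairs of genotypes overlapped, and it was not called in any comparison.

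Among the other HIF targets, P4ha1, a collagen prolyl hydroxylase, had 182, 168 and 99.7 CPM in WT, 148, 147 and 162 in Tbk1het, 169, 119 and 143 in Tak1het, 134, 127 and 118 in Tbk1het Tak1het, 99.8, 129 and 123 in the libraries labelled Tbk1het Ripk1hom, and 109.9, 203 and 160.3 in those labelled Tbk1het Tak1het Ripk1het. Its Tbk1het libraries lay above those of Tbk1het Tak1het and those labelled Tbk1het Ripk1hom. All other pairs of genotypes overlapped, and it was not called in any comparison. Hilpda, which blocks lipid breakdown at lipid droplets, had 28.7, 25.4 and 15.9 CPM in WT, 76.8, 34.7 and 73.4 in Tbk1het, 48.3, 23.3 and 17.6 in Tak1het, 32.9, 37.2 and 34.5 in Tbk1het Tak1het, 11.7, 25.1 and 14.1 in the libraries labelled Tbk1het Ripk1hom, and 17.2, 27.6 and 24.1 in those labelled Tbk1het Tak1het Ripk1het. The highest libraries were Tbk1het replicates 1 and 3 and then Tak1het replicate 1, and the Tbk1het Tak1het libraries lay above WT. Bnip3 (ENSMUSG00000078566, chromosome 7, 138890836 to 138909519, minus strand), a receptor for the removal of mitochondria, had 18.2, 16.5 and 12.6 CPM in WT, 25.5, 12.4 and 26.2 in Tbk1het, 15.5, 13.4 and 14.4 in Tak1het, 9.49, 9.58 and 9.81 in Tbk1het Tak1het, 12.6, 14.7 and 11.5 in the libraries labelled Tbk1het Ripk1hom, and 12.4, 16.6 and 18.8 in those labelled Tbk1het Tak1het Ripk1het. The 3 Tbk1het Tak1het libraries were nearly equal and were the 3 lowest of the 18. Ankrd37, an ankyrin repeat protein, had 11.1, 9.43 and 3.89 CPM in WT, 17.2, 10.0 and 12.2 in Tbk1het, 7.34, 11.3 and 12.0 in Tak1het, 3.18, 2.82 and 3.73 in Tbk1het Tak1het, 3.67, 15.2 and 3.01 in the libraries labelled Tbk1het Ripk1hom, and 4.33, 13.5 and 8.54 in those labelled Tbk1het Tak1het Ripk1het. Mxi1, a partner of MAX that opposes MYC, had 12.7, 13.0 and 12.0 CPM in WT, 33.9, 15.1 and 28.5 in Tbk1het, 15.9, 12.4 and 13.1 in Tak1het, 9.28, 11.9 and 10.8 in Tbk1het Tak1het, 13.6, 11.7 and 7.78 in the libraries labelled Tbk1het Ripk1hom, and 9.19, 18.2 and 10.9 in those labelled Tbk1het Tak1het Ripk1het. Ankrd37 was low in all 3 Tbk1het Tak1het libraries and nearly as low in WT replicate 3 and in replicates 1 and 3 labelled Tbk1het Ripk1hom, and Mxi1 was high in Tbk1het replicates 1 and 3. Ndrg1 (ENSMUSG00000005125, chromosome 15, 66929318 to 66969640, minus strand), a stress-induced protein, had 34.6, 28.3 and 21.3 CPM in WT, 8.39, 26.8 and 7.03 in Tbk1het, 8.2, 28.8 and 34.3 in Tak1het, 5.14, 5.64 and 5.92 in Tbk1het Tak1het, 17.1, 10.7 and 25.8 in the libraries labelled Tbk1het Ripk1hom, and 22.4, 30.3 and 35.5 in those labelled Tbk1het Tak1het Ripk1het. Its pattern differed from that of the enzymes, since Tbk1het replicates 1 and 3 and Tak1het replicate 1 were the next lowest after the 3 Tbk1het Tak1het libraries, and the libraries labelled Tbk1het Tak1het Ripk1het overlapped the WT range.

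**Figure D2:**
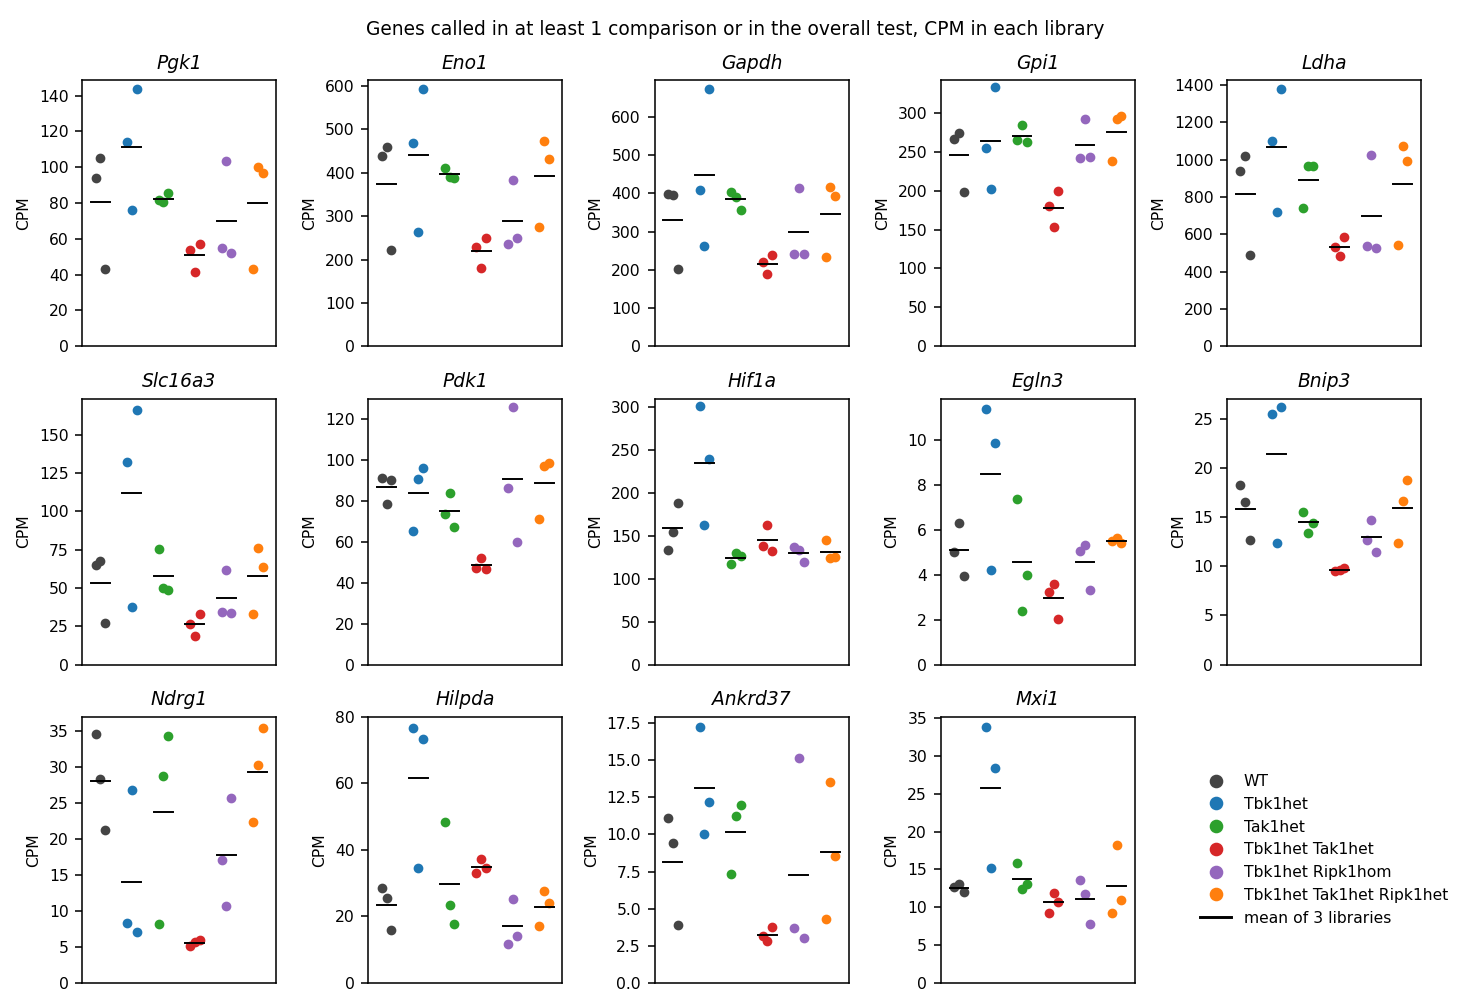
CPM in each library for the 14 genes that passed the test in at least 1 comparison, with 1 panel per gene, colours for the 6 genotypes, and a black line for the mean of 3 libraries. Tbk1het Tak1het (red) has the lowest mean for 12 of the 14 genes, with Pdk1 at 47.4, 52.3 and 47.0 CPM, and the 3 Tbk1het libraries (blue) are widely spread for Slc16a3, Hilpda and Mxi1.

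The largest number of these genes changed where the Tak1ΔM allele was added to Tbk1 heterozygosity. In Tbk1het Tak1het against Tbk1het, 12 of the 32 genes fell and none rose, that is 37.5% of them, against 14.7% of all tested genes that changed and 8.24% that fell. The 12 were the enzymes Gpi1, Gapdh, Pgk1, Eno1 and Ldha, the lactate exporter Slc16a3, the kinase Pdk1, the oxygen-sensing genes Hif1a and Egln3, and the targets Bnip3, Ankrd37 and Mxi1. By role these were 5 of 15 enzymes, 1 of 2 transporters, 1 of 4 flux regulators, 2 of 3 oxygen-sensing genes and 3 of 8 other targets. The median log2 fold change of the 32 was -0.67, against 0.01 over all tested genes. For Slc16a3 the log2 fold change was -2.08 (SE 0.465, adjusted p = 0.00623), the largest fall of the 12. Ankrd37 followed with -2.01 (SE 0.557, adjusted p = 0.0213) and Egln3 with -1.53 (SE 0.428, adjusted p = 0.0223). Bnip3 had -1.15 (SE 0.255, adjusted p = 0.00600), the smallest adjusted p of the 32. Among the enzymes, Pgk1 fell by 1.13, Gapdh by 1.05, Eno1 by 1.01, Ldha by 1.00 and Gpi1 by 0.56 on the log2 scale, with adjusted p from 0.0284 to 0.0391. Mxi1 fell by 1.28 (adjusted p = 0.00816), Pdk1 by 0.78 (0.0205) and Hif1a by 0.70 (0.0126). All libraries of Tbk1het Tak1het lay below all of Tbk1het for 20 of the 32 genes, against 16.4% of all tested genes.

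The calls depended on single libraries. Without Tbk1het replicates 1 and 3, which leaves a lone Tbk1het library assumed to vary like the other genotypes, none of the 12 passed and 1 other member did, Ndrg1 (log2 fold change -2.25, adjusted p = 0.0368), against 2.12% of all genes. Without replicate 1 alone 3 members passed (8.22% of all genes) and without replicate 3 alone 5 (9.57%). Without replicate 2, the library with low enzymes, 20 passed (15.7% of all genes). Leaving out Tbk1het Tak1het replicate 1, 2 or 3 left 3, 6 and 4, against 8.72%, 9.77% and 7.61% of all genes. The border macrophage list of 6 markers summed to 696, 505 and 885 CPM in Tbk1het and 390.2 to 436 in Tbk1het Tak1het, with Ly6c2 at 0 in each of these 6 libraries, and Lyve1 fell by 6.34 on the log2 scale. Of 12 microglia markers 3 fell, namely Fcrls (-1.78), P2ry12 (-1.38) and Cx3cr1 (-0.64), and their list summed to 10907 to 12359 CPM in Tbk1het and 10471 to 11064 in Tbk1het Tak1het. The oligodendrocyte lineage list of 10 markers summed to 60.1 to 65.5 CPM in Tbk1het and 73.7 to 87.0 in Tbk1het Tak1het, with Mog at 0 in all 6 libraries. The part of these markers in the result was not tested. Mitochondrially encoded genes took 2.20, 1.82 and 2.00% of the counts in Tbk1het and 0.512, 0.508 and 0.367% in Tbk1het Tak1het, so that share and the genotype cannot be told apart here, and no member passed with the share as a covariate, when 0.364% of all genes did.

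**Figure D3:**
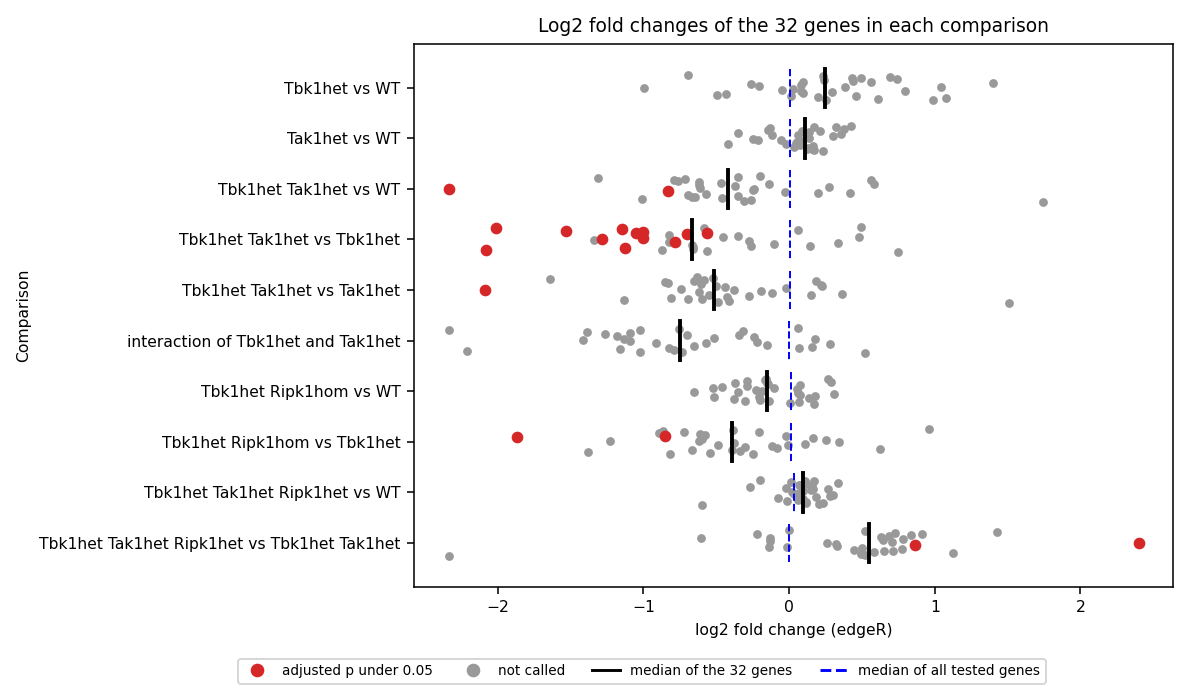
Log2 fold change from edgeR (horizontal axis) of each of the 32 genes in each comparison between genotypes and in the interaction (vertical axis), with red points for adjusted p under 0.05, a black line for the median of the 32 and a dashed blue line for the median of all tested genes. The median of the 32 is -0.67 in Tbk1het Tak1het against Tbk1het and 0.55 in Tbk1het Tak1het Ripk1het against Tbk1het Tak1het, while the median of all tested genes stays between 0.00 and 0.04.

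Against WT, Tbk1het Tak1het showed the same sign for most of the genes but few calls. Ndrg1 and Pdk1 fell, 2 of 32, against 6.07% of all tested genes that changed and 3.9% that fell, so the share of members (6.25%) was close to the background. The log2 fold change was -2.33 (SE 0.516, adjusted p = 0.0133) for Ndrg1 and -0.83 (SE 0.215, adjusted p = 0.0292) for Pdk1, and for both the 3 libraries lay below all WT libraries. The fold change was below 0 for 26 of the 32, with a median of -0.42 against 0.00 over all genes, and 14 of the 15 enzymes were among the 26. Eno1 gave -0.76 (adjusted p = 0.140), Bnip3 -0.71 (adjusted p = 0.107) and Slc16a3 -1.01 (adjusted p = 0.220). The groups did not overlap, with Tbk1het Tak1het lower, for 8 of the 32, against 14.4% of all genes. WT replicate 3, with a mitochondrial share of 0.671% against 1.42% and 1.62% in the other WT libraries, overlapped Tbk1het Tak1het for most enzymes, and the part of that share in the result was not tested. No member passed without Tbk1het Tak1het replicate 1, 2 or 3, or with the share as a covariate. There was 1 call without WT replicate 1 (3.01% of all genes) or 2 (2.3%), and there were 3 without WT replicate 3 (4.33%). Over all 14 alternatives the fold change ran from -2.10 to -2.51 for Ndrg1 and from -0.63 to -0.91 for Pdk1.

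Tbk1het Tak1het against Tak1het gave the same direction. Ndrg1 fell (log2 fold change -2.09, SE 0.514, adjusted p = 0.0366), the 1 call among 32, where 2.79% of all genes changed and 2.05% fell. All 15 enzymes had a fold change below 0, and the median of the 32 was -0.51 against 0.01 over all genes. Gpi1 had -0.61 (adjusted p = 0.0643), Pgam1 (phosphoglycerate mutase) -0.81 (adjusted p = 0.119) and Pdk1 -0.62 (adjusted p = 0.147). For 17 of the 32 genes all Tbk1het Tak1het libraries lay below all Tak1het libraries, against 12.5% of all genes. In a fit on only these 6 libraries, 12 members passed, where 4.39% of all genes did. Mitochondrial shares were 0.453, 1.41 and 1.5% in Tak1het. Tak1het replicate 1 thus had a share as low as Tbk1het Tak1het, and its enzymes summed to 6239 CPM, above the 3 Tbk1het Tak1het libraries. The call on Ndrg1 was lost without Tak1het replicate 2 or 3 and without any Tbk1het Tak1het replicate (0 members each), with the replicate block, with the mitochondrial share as a covariate and with limma-voom (0 each), while its fold change ran from -1.72 to -2.50 over all 14 alternatives. Gfap, an astrocyte marker, rose in the same comparison, with 0, 0 and 0.0686 CPM in Tak1het and 0.636, 2.03 and 1.29 in Tbk1het Tak1het, and the astrocyte list summed to 29.6 to 48.3 and 21.1 to 29.5 CPM. The part of these markers in the result was not tested. Comparisons with a group in common share its libraries and are not independent of each other.

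**Figure D4:**
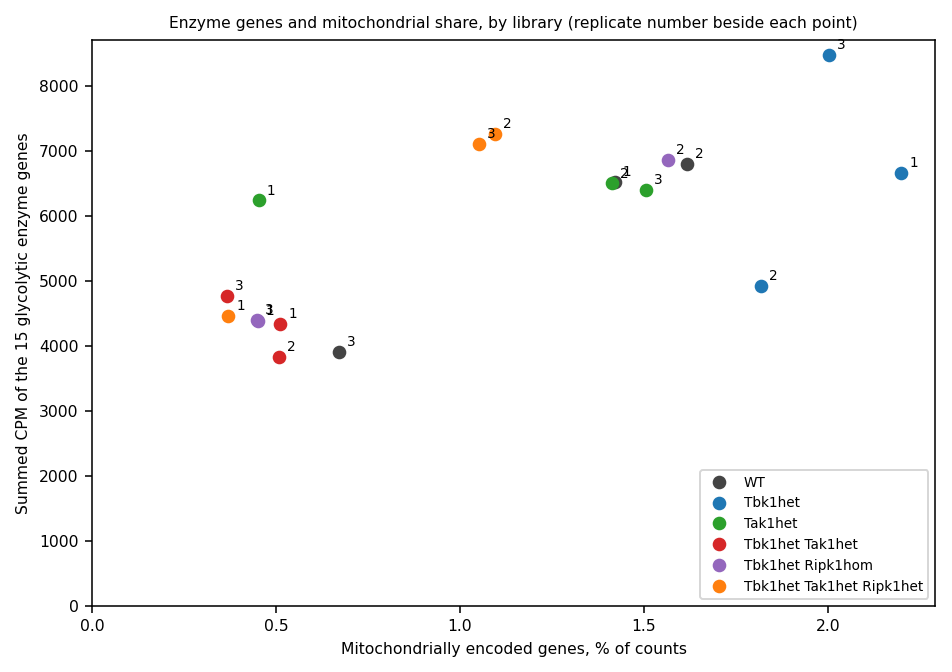
Summed CPM of the 15 glycolytic enzyme genes (vertical axis) against the share of counts in mitochondrially encoded genes (horizontal axis, %) for each of the 18 libraries, coloured by genotype with the replicate number beside each point. The libraries at or under 0.671% lie at or below 4772 CPM, except Tak1het replicate 1 (0.453%) with 6239 CPM, and Tbk1het replicate 2 (1.82%) has 4927 CPM.

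The interaction compared the effect of Tbk1 heterozygosity with and without the Tak1ΔM allele. No member passed (0 of 32, edgeR adjusted p under 0.05) where 1.75% of all genes did. By DESeq2 3 members passed (Slc16a3, Ankrd37 and Mxi1), where 5.06% of all genes did, and by limma-voom none, where 1.33% did. At an unadjusted p under 0.05, 17 of the 32 were counted, all with a negative interaction, against 16.7% of all genes in either direction and 8.98% with a negative one. Slc16a3 had an interaction of -2.21 (adjusted p = 0.0868) on the log2 scale, Mxi1 of -1.42 (adjusted p = 0.0909) and Ankrd37 of -2.33 (adjusted p = 0.128). Without Tbk1het replicate 2, 6 members passed, where 5.04% of all genes did, and without replicates 1 and 3 none did.

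In the single heterozygotes none of the 32 genes passed against WT by edgeR. In Tbk1het against WT 0 passed, where 0.0521% of all genes did, and 6 had an unadjusted p under 0.05 (10.2% of all genes). DESeq2 called 1, Hilpda (log2 fold change 1.41, adjusted p = 0.025), where it called 0.729% of all genes, and limma-voom 0 (0.0223%). Hilpda had 1.40 (adjusted p = 0.233) by edgeR, Mxi1 1.04 (adjusted p = 0.260), Hif1a 0.56 (adjusted p = 0.317) and Slc16a3 1.07 (adjusted p = 0.426). The median of the 32 was 0.25 against 0.00 over all genes. Without Tbk1het replicate 2, 5 members passed where 2.37% of all genes did: Hilpda, Mxi1, Slc16a3 and Hif1a were higher and Ndrg1 was lower. Without replicates 1 and 3 none passed, where 0.00652% of all genes did, and the median of the 32 was -0.14. The fit without replicate 2 rests on the libraries with high Lyve1, whose border macrophage markers summed to 696 and 885 CPM against 358 to 457 in WT, and their part in the result was not tested. In Tak1het against WT 0 passed (0.0149% of all genes), none had an unadjusted p under 0.05 (9.47% of all genes), and DESeq2 and limma-voom called 0 each. The median there was 0.11 against 0.00.

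Kinase-dead Ripk1 on both alleles was compared with Tbk1het. Hilpda and Hif1a were lower in the libraries labelled Tbk1het Ripk1hom, 2 of 32, against 0.521% of all genes that changed and 0.238% that were lower. The log2 fold change was -1.87 (SE 0.378, adjusted p = 0.0411) for Hilpda and -0.85 (SE 0.176, adjusted p = 0.0411) for Hif1a. Every Tbk1het value of both genes lay above every value labelled Tbk1het Ripk1hom. Mxi1 had -1.23 (adjusted p = 0.0723) and Slc16a3 -1.38 (adjusted p = 0.160), and the median of the 32 was -0.39 against 0.01. The calls rest on libraries of which replicates 1 and 3 go against their Tbk1 label. No member passed without those 2 libraries, and none without Tbk1het replicates 1 and 3, without either of them alone, or without Ripk1hom replicate 1 or 3. Without Ripk1hom replicate 2 there was 1 call (0.692% of all genes) and without Tbk1het replicate 2 there were 5 (4.3%). With the replicate block, with the mitochondrial share as a covariate (0.451, 1.57 and 0.449% in these libraries) or with only these 6 libraries, none passed. The fold change ran from -1.04 to -2.28 for Hilpda and from -0.33 to -1.07 for Hif1a over all 16 alternatives. Against WT, 0 of 32 passed by edgeR, DESeq2 or limma-voom, none had an unadjusted p under 0.05 (5.12% of all genes), and 0% of all genes passed.

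The libraries labelled Tbk1het Tak1het Ripk1het, which by label add 1 kinase-dead Ripk1 allele, were compared with Tbk1het Tak1het. Pdk1 and Ndrg1 were higher in the libraries labelled Tbk1het Tak1het Ripk1het, 2 of 32, against 2.45% of all genes that changed and 1.84% that were higher. Pdk1 differed by 0.86 (SE 0.215, adjusted p = 0.0389) and Ndrg1 by 2.40 (SE 0.517, adjusted p = 0.0185) on the log2 scale, and neither gene's groups overlapped. The fold change was above 0 for 25 of the 32, 14 of them enzymes, with a median of 0.55 against 0.00. Gpi1 had 0.63 (adjusted p = 0.0592), Bnip3 0.73 (adjusted p = 0.156) and Eno1 0.84 (adjusted p = 0.157). All 3 libraries were above all of Tbk1het Tak1het for 11 of the 32, against 12.8% of all genes. The 3 libraries labelled Tbk1het Tak1het Ripk1het all had Tbk1 in the WT range, so the Ripk1 allele and the dose of Tbk1 cannot be told apart here. No member passed without any 1 of the Tbk1het Tak1het libraries, without replicate 2 or 3 of the other group, or by limma-voom. In a fit on these 6 libraries 5 passed, where 4.77% of all genes did. Over all 14 alternatives the fold change ran from 2.22 to 2.55 for Ndrg1 and from 0.75 to 0.99 for Pdk1. Of the marker lists, Cx3cr1, a microglia marker, was the 1 gene called higher (0.79, adjusted p = 0.0400), the microglia list summed to 10471 to 11064 CPM in Tbk1het Tak1het and 10336 to 12162 in the other group, and their part in the result was not tested. The mitochondrial shares were 0.370, 1.10 and 1.05%, and with that share as a covariate Ndrg1 alone passed (2.28, adjusted p = 0.0387). Against WT, the same libraries gave 0 of 32 by edgeR, DESeq2 and limma-voom, none at an unadjusted p under 0.05 (7.99% of all genes), and 0% of all genes, with a median of 0.10 against 0.04.

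Over all 6 genotypes at once, 4 of the 32 genes differed (12.5%), against 7.18% of all tested genes, and 12 had an unadjusted p under 0.05, against 23% of all. The 4 were Hif1a (adjusted p = 0.0157), Hilpda (0.0282), Mxi1 (0.0400) and Ndrg1 (0.0484), with Slc16a3 next (0.0732). The first 3 had their highest libraries in Tbk1het replicates 1 and 3, and Ndrg1 its lowest in Tbk1het Tak1het. Without either of those Tbk1het libraries no member passed, and without both Ndrg1 alone did (adjusted p = 0.0393). Without Tbk1het replicate 2, 7 passed, where 9.46% of all genes did. The count was 1 without any 1 Tbk1het Tak1het library (2.27 to 2.66% of all genes). It was 2 without any 1 WT library, Tak1het replicate 2, Tbk1het Ripk1hom replicate 3 or Tbk1het Tak1het Ripk1het replicate 3 (4.53 to 6.17%). No member passed with the mitochondrial share as a covariate.

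Other genes of the same pathways were taken from a list of 28 further glycolysis and pyruvate genes, of which 24 were tested, and of 35 further HIF pathway and hypoxia genes, of which 31 were tested. In Tbk1het Tak1het against Tbk1het 7 of 24 and 4 of 31 fell and none rose, that is 29.2% and 12.9%, against 14.7% of all tested genes that changed and 8.24% that fell, with medians of -0.47 and -0.35. Slc2a6, a lysosomal sugar transporter of macrophages, fell by 2.70 on the log2 scale and Pdk2, another pyruvate dehydrogenase kinase, by 0.90 (adjusted p = 0.00272 and 0.0279). Dld, a subunit of pyruvate dehydrogenase, gave -0.70 (adjusted p = 0.00693) and Mpc1, of the mitochondrial pyruvate carrier, -0.63 (adjusted p = 0.0149). The falls thus lay on both sides of the branch between lactate and mitochondrial pyruvate. From the second list Pygl, the glycogen phosphorylase that frees glucose from glycogen, fell most (-1.34, adjusted p = 0.000921), then Ero1l (-0.77), Vhl, the ubiquitin ligase subunit that destroys HIF alpha (-0.76), and Bnip3l (-0.63). Without Tbk1het replicates 1 and 3, none of these 11 calls was left (0 of 25 and 1 of 32 tested genes, the 1 being Rora, named after its value was seen, with -1.13, adjusted p = 0.0398, against 2.12% of all genes), and the medians were -0.22 and -0.03. In that fit Slc2a6 had -1.02 (adjusted p = 0.349), Mpc1 -0.61 (0.183), Dld -0.47 (0.296) and Pygl -1.03 (0.0761).

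Pygl had 129, 113 and 106 CPM in WT, 126, 90.0 and 116 in Tbk1het, 73.3, 102 and 106 in Tak1het, 37.1, 42.0 and 51.5 in Tbk1het Tak1het, 109, 58.8 and 114 in the libraries labelled Tbk1het Ripk1hom, and 101, 108 and 128 in those labelled Tbk1het Tak1het Ripk1het. The 3 Tbk1het Tak1het libraries were the 3 lowest of the 18, and unlike the enzymes Pygl was not low in WT replicate 3. Its log2 fold change in Tbk1het Tak1het was -1.41 (adjusted p = 0.00171) with WT as the reference and -1.11 (adjusted p = 0.0104) with Tak1het, and it was higher in the libraries labelled Tbk1het Tak1het Ripk1het than in Tbk1het Tak1het (1.37, adjusted p = 0.00312). It was the 1 call of the second list against WT, where the first list had 0 of 24 and 6.07% of all tested genes changed. Of those 24, 9 had an unadjusted p under 0.05, 3 of them higher and 6 lower. The share of all genes at that limit is not given here, so the 9 is a count only. Against Tak1het, Ldhb, the heart-type lactate dehydrogenase, fell (-0.99, adjusted p = 0.0418), while Lox, a collagen crosslinking enzyme, rose (2.83, adjusted p = 0.00915). Lox was at 0.273, 0.352 and 0.274 CPM in Tak1het, 1.43, 1.58 and 3.43 in Tbk1het Tak1het and 9.37, 4.77 and 2.44 in WT. It was the 1 call of both lists in Tak1het against WT (-4.17, adjusted p = 0.00951). Its Tak1het values were near the floor of 3 counts, which was 0.137, 0.176 and 0.206 CPM there. The fibroblast, mural and endothelial markers summed to 45.8, 10.7 and 11.0 CPM in WT and 3.87, 4.28 and 6.79 in Tak1het. The part of these markers in the result was not tested. In the interaction 1 gene of each list passed, Mpc1 (-0.99, adjusted p = 0.0368) and Lox (3.42, adjusted p = 0.0247), and without Tbk1het replicates 1 and 3 neither did (-0.95, adjusted p = 0.233, and 3.20, adjusted p = 0.234). Neither list had a call in Tbk1het against WT or in the comparisons of the libraries labelled Tbk1het Ripk1hom and Tbk1het Tak1het Ripk1het other than Pygl.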

How the data were processed

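Libraries were made from polyadenylated RNA with Smart-seq2, per the labels' protocols. Its reads carry no strand, so a gene and an antisense neighbour share reads where they overlap. The deposited values are raw counts of reads per gene, which the authors made with STAR, featureCounts and mm10, per the submitters' processing notes, whereas the labels' protocol text names RSEM. The counts were whole numbers and not normalized. Versions, annotation and strand setting are not given in the sources used here.

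Symbols and coordinates came from GENCODE M21 (GRCm38), which matched 50376 of 50686 identifiers. The filter on low counts was filterByExpr with genotype as the group. The quasi-likelihood test of edgeR 4.0.16 (R 4.3.3) was fitted to all 18 libraries with TMM scaling and a term per genotype, with Benjamini-Hochberg adjustment over 13447 genes. An adjusted p under 0.05 was a call. Log2 fold changes and standard errors are from this fit. Amplified reads without molecular identifiers are not independent molecules, so the floor of 3 counts covers counting error only.

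Values by library are given for genes called at least once and for the 2 most abundant genes of each role. From the lists of other pathway genes, up to 4 calls per comparison are named. The members, lists and rules were chosen with earlier results of these data known. Alternatives were DESeq2 1.42.0, limma-voom (limma 3.58.1), edgeR with the size factors of DESeq2, all genes unfiltered, a mean of at least 5 CPM, the replicate number as a block, the mitochondrial share as a covariate, only the libraries compared, leaving out each library, and leaving out the libraries whose Tbk1 goes against their label. A fit without the 2 Tbk1het libraries with high Lyve1 was chosen after seeing the data. The result of 1 gene of the marker lists is not reported here.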

Additional observations from a re-analysis of the deposited data

How the results depend on the processing

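DESeq2 size factors and a mean of at least 5 CPM moved no count of called members by over 1.5 times. DESeq2 called 10 members across the 6 genotypes, where it called 16.9% of all tested genes. It called 1 in Tbk1het against WT (0.729% of all genes) and 3 in Tbk1het Tak1het against Tak1het (5.45%). It called 3 in the interaction (5.06%) and 4 in Tbk1het Ripk1hom against Tbk1het (3.65%). In Tbk1het Tak1het Ripk1het against Tbk1het Tak1het it called 4 (5.53%). Limma-voom called 2 across the 6 genotypes (7% of all genes). It called 0 in the comparisons of Tbk1het Tak1het with Tak1het (2.07%) and with Tbk1het Tak1het Ripk1het (1.81%). Without a low-count filter the counts were 20 across the 6 genotypes (10.6% of the 26917 genes then tested) and 4 in Tbk1het against WT (1.09%). They were 12, 22 and 13 in Tbk1het Tak1het against WT, Tbk1het and Tak1het (5.22%, 8.79% and 3.22%). In the interaction the count was 13 (3.44%). It was 8 in Tbk1het Ripk1hom against Tbk1het (2.8%) and 14 in Tbk1het Tak1het Ripk1het against Tbk1het Tak1het (3.21%). With the mitochondrial share as a covariate the count was 0 across the 6 genotypes (1.36% of all genes). It was 0 in Tbk1het Tak1het against WT, Tbk1het and Tak1het (1.61%, 0.364% and 1.12%). With that covariate it was 0 in Tbk1het Ripk1hom against Tbk1het (0%) and 1 in Tbk1het Tak1het Ripk1het against Tbk1het Tak1het (2.15%). That covariate also reversed 3 fold changes in Tbk1het Tak1het against Tbk1het, of Ankrd37 to 0.32, Ldha to 0.31 and Pgk1 to 0.15. Fits on only the libraries compared gave 5 in Tbk1het Tak1het Ripk1het against Tbk1het Tak1het (4.77% of all genes). In the same kind of fit the counts were 12 in Tbk1het Tak1het against Tak1het (4.39%) and 0 in Tbk1het Ripk1hom against Tbk1het (0%). Without both Tbk1het libraries with high Lyve1 they were 1 across the 6 genotypes, 1 in Tbk1het Tak1het against Tbk1het and 0 in Tbk1het Ripk1hom against Tbk1het. That last count was also 0 without the libraries whose Tbk1 goes against their label. The cause of these changes was not tested.

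Leaving out each library gave 0 to 7 calls across the 6 genotypes, 0 to 5 in Tbk1het against WT, 0 to 3, 3 to 20 and 0 to 1 in Tbk1het Tak1het against WT, Tbk1het and Tak1het, 0 to 6 in the interaction, 0 to 5 in Tbk1het Ripk1hom against Tbk1het and 0 to 3 in Tbk1het Tak1het Ripk1het against Tbk1het Tak1het, with 0 to 0 in Tak1het, Tbk1het Ripk1hom and Tbk1het Tak1het Ripk1het against WT. The share of all genes called in those fits ran from 2.27% to 9.46% across the 6 genotypes. In Tbk1het Tak1het against Tbk1het it ran from 7.61% to 15.7%. Of 282 alternative values of the called fold changes, 164 kept their direction and call, 115 lost the call and 3 reversed.

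With the replicate number as a block, 2 members were called across the 6 genotypes (6.16% of all genes). With it 0 were called in Tbk1het Tak1het against Tak1het (2.44%) and 0 in Tbk1het Ripk1hom against Tbk1het (0.26%). No other count moved by over 1.5 times. Samples with the same number correlated above 0.1 in 9 of 45 pairs, and 8 of 18 libraries correlated best with their own number, so the numbers were not taken to pair the libraries. Vegfa and Adm were low, at most 1.48 and 1.58 CPM against a floor of 0.137 to 0.338 CPM, and neither was called in any comparison. Their standard errors were large, 1.45 for Vegfa and 1.07 for Adm in Tbk1het Tak1het against WT, so differences in them could be missed.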
